A study of Mus musculus with 32 samples.

Results

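The keratin genes are described here across 8 MeDIP-seq libraries of mouse organs. MeDIP-seq pulls down DNA fragments with an antibody against 5-methylcytosine (5mC) and sequences them, so a higher value on a gene means more methylated DNA recovered from it. Members were all genes of the deposited table whose symbol is Krt followed by digits alone, which gave 50 of 27179 genes. The 4 keratins of simple epithelium (Krt7, Krt8, Krt18 and Krt19) were set against the 46 others. The libraries were FFPE (fixed in formalin and embedded in paraffin) and flash-frozen tissue of brain, heart, kidney and liver, with 1 column for each organ and preservation. The labels give no strain, sex, age or genotype for the mice, and no label separates animals. All organs came from unselected bulk tissue, so a gene's value averages over every cell type of the organ, and a change in cell makeup cannot be told apart from a change within cells.

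Keratins build the intermediate filaments of epithelial cells. A filament is assembled from pairs of an acidic type I and a basic type II keratin, and each kind of epithelium is known for its own pairs. In the mouse the type II genes lie together on chromosome 15 and the type I genes on chromosome 11, except Krt18, which sits beside its partner Krt8 on chromosome 15. Krt8 and Krt18 are the keratins of hepatocytes and of many renal tubule cells, while Krt7 and Krt19 mark bile ducts and collecting ducts. Brain and heart hold little simple epithelium. Most other members serve the epidermis, the lining of mouth and oesophagus, or the hair follicle, none of which was sampled here. Methylated cytosine in mammals lies mostly in CG dinucleotides. Dense clusters of CG at gene starts, called CpG islands, are usually unmethylated.

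The table covered each member with 4 to 481 reads per library, with a median of 93.5 reads. No member had 0 reads in any library, and all 50 passed the filter of at least 1 CPM (count scaled to library size) in 2 or more libraries. The reads on all genes together numbered 2164158 to 3699218 per library. The frozen kidney library stood apart, with 0 reads on 2999 genes and a standard deviation of 2.67 in log2 CPM across the genes tested, against 880 to 2380 genes and 1.75 to 2.60 in the other libraries. Among markers of the organs' own cells, 9 of 10 hepatocyte genes were called lower in liver (limma, adjusted p under 0.05). So were 5 of 10 cardiomyocyte genes in heart and 5 of 10 neuron genes in brain. In kidney 0 of 10 nephron genes were called in either direction. Of all genes tested, 7.42% were called lower in liver, 1.97% in heart and 12.8% in brain. In kidney 0.566% were called lower and 0.897% higher.

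The stretches of DNA before the gene starts show how 3 of the 4 simple keratins differ in CG content. The set of RefSeq promoter sequences used (GRCm38.p6, the assembly behind mm10) held 35 of the 50 members and lacked Krt19. The 250 bases before the start are printed 5′ to 3′ on the gene's strand with each CG in capitals, for Krt7 (chr15:101412153-101412402, plus strand), Krt18 (chr15:102027966-102028215, plus strand) and Krt8 (chr15:102004343-102004592, minus strand).
Krt7: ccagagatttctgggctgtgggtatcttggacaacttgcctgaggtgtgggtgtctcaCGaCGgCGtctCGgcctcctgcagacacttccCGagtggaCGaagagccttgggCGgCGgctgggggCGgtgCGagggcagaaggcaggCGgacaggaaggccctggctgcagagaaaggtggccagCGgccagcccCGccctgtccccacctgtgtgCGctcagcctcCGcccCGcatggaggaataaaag
Krt18: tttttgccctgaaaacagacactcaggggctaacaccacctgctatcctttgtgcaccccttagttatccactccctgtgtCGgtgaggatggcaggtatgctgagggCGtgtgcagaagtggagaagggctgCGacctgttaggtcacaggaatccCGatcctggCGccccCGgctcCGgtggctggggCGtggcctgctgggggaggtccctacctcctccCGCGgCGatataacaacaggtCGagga
Krt8: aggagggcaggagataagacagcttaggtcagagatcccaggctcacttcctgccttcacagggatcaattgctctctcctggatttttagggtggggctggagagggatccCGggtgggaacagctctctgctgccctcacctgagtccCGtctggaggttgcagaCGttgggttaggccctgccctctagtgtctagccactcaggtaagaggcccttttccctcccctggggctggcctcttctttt
Krt7 held 16 CG and Krt18 held 12, against 3 in Krt8, although Krt8 and Krt18 are neighbours and form a filament pair. The 32 other members with a sequence held 1 to 9 CG, with a median of 3.5. The median over all 27025 promoters of the reference set was 6, a set not limited to genes of the table. At least 10 CG were found in 2 of 35 keratin promoters, which are those of Krt7 and Krt18, and in 38.2% of all promoters.

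Another set of 250 bases belongs to Krt25, Krt26, Krt27, Krt28 and Krt10, 5 type I genes that follow one another on chromosome 11 and whose 5mC signal in liver is described below. Krt25 to Krt28 are keratins of the inner root sheath, the layer that guides the growing hair, and Krt10 is the type I keratin of suprabasal epidermis. All lie on the minus strand, at chr11:99322952-99323201, chr11:99337966-99338215, chr11:99351119-99351368, chr11:99374904-99375153 and chr11:99389365-99389614 in that order. The Krt10 stretch lies inside the whole RefSeq span of its gene (chr11:99385254-99397449), so it is not upstream of that span. The same holds for the stretches of Krt2, Krt12, Krt14, Krt36 and Krt78, which are part of the promoter counts. Capitals mark TATAAA, the core of the TATA box, only where it lies in the last 50 bases.
Krt25: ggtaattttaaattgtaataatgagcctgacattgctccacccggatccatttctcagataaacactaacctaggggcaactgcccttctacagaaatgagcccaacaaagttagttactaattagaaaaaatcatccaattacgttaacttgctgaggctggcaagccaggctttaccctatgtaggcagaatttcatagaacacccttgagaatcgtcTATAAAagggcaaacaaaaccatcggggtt
Krt26: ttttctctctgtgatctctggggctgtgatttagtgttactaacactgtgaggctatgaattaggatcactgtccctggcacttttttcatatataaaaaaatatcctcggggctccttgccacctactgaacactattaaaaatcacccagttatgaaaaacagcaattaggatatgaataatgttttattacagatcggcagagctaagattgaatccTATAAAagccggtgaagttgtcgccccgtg
Krt27: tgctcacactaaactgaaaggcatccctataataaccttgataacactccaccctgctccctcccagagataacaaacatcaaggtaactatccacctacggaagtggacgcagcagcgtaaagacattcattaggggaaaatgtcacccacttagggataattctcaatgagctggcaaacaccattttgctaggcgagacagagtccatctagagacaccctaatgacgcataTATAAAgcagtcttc
Krt28: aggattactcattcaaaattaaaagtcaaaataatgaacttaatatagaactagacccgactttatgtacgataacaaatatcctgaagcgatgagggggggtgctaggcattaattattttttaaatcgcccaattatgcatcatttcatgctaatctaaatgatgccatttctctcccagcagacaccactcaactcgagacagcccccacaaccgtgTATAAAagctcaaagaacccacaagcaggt
Krt10: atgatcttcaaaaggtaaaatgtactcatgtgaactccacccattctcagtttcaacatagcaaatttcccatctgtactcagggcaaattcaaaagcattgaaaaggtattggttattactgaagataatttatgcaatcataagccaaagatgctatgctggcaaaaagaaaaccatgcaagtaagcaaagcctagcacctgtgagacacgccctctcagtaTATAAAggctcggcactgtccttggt
The motif TATAAA was searched on both strands in the last 50 of these bases. It occurred in 14 of 35 keratin promoters (40%) and in 3.78% of all promoters. By class it was found in 6 of 8 root-sheath keratins, 4 of 8 hair keratins, 3 of 11 stratified-epithelium keratins and 0 of 3 simple keratins. Across the 35 members, Spearman's rho between the number of CG and the log2 difference of liver from the other organs was 0.05, a description over genes that share libraries. The processing notes do not state which part of a gene the MeDIP reads were counted over, so the values that follow cannot be read as promoter values.

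Levels are first given per length. The members' mean signal had a median of 5.31 CPM per kilobase of gene, against 1.38 over all genes tested. Of the members, 47 of 50 lay above that all-gene median. Length was that of the whole RefSeq gene, so these levels would not compare between genes if only exons were counted. Spearman's rho between log2 CPM and gene length was 0.10 over the members and 0.59 over all genes. The part of the length divisor in the gap was not tested. Krt4, a type II keratin of the oesophagus and tongue lining, had the highest mean at 15.1 CPM per kilobase. It was followed by the root-sheath gene Krt27 at 13.2 and Krt14, the type I keratin of basal epidermis, at 12.9 CPM per kilobase. The lowest were Krt88 at 0.741, Krt78 at 0.999 and Krt74 at 1.05 CPM per kilobase, and RefSeq annotates Krt74 as a transcribed pseudogene. The low place of Krt78 goes with a RefSeq length of 50624 bases. Its mean of 5.65 log2 CPM lay above the members' median of 5.08. Its promoter stretch begins inside that length, at chr15:101954288, so the divisor for Krt78 may be too long. Among the simple keratins Krt8 had 6.45 (place 19 of 50), Krt19 5.61 (place 23), Krt18 3.03 (place 34) and Krt7 1.90 CPM per kilobase (place 44). The class medians were 4.32 for simple, 6.59 for stratified-epithelium, 5.26 for hair and 4.85 CPM per kilobase for root-sheath keratins, with ranges that overlap.

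The members varied less between libraries than genes in general. The distance between a member's highest and lowest library had a median of 1.24 in log2 CPM, against 1.63 over all genes tested, at median log2 CPM levels of 5.08 and 4.21. Krt83, a hair keratin, was the steadiest, with 5.02 to 5.29 log2 CPM over the 8 libraries. Krt88 ranged most widely, between 0.45 log2 CPM in frozen kidney and 3.76 in frozen brain, on 4 to 32 reads. Among simple keratins Krt19 was the steadiest with a range of 1.09, and Krt18 varied most with a range of 2.33 in log2 CPM. Reads on the 4 simple keratins made up 0.0092% and 0.0076% of all gene reads in FFPE and frozen kidney and 0.0096% and 0.0112% in FFPE and frozen liver. The shares were 0.0133% and 0.0165% in FFPE and frozen brain and 0.0160% and 0.0127% in FFPE and frozen heart. The exact 95% intervals (Clopper-Pearson, counting error only) were 0.00796% to 0.0106% for FFPE kidney and 0.00671% to 0.00858% for frozen kidney, and the lowest bound in a brain or heart library was 0.0114%. These shares are of raw reads, without the scaling between libraries used for CPM. Per kilobase of the 4 genes together, FFPE and frozen liver had 3.52 and 3.77 CPM, against 3.69 to 4.76 in brain and heart. Frozen liver thus lay above frozen heart at 3.69. Kidney stayed lowest, with 2.94 in FFPE and 2.49 in frozen tissue.

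Krt8 (chr15:101996711-102004342), the type II keratin of simple epithelium, had its lowest signal in kidney. It had 5.34 and 4.31 log2 CPM in FFPE and frozen kidney, against 5.48 and 6.22 in FFPE and frozen brain, 6.01 and 5.65 in FFPE and frozen heart and 5.55 and 5.76 in FFPE and frozen liver. Both kidney libraries lay below the 6 others, and the frozen one far below. The kidney minus the mean of the other organs was -0.95 ± 0.26 (log2, SE), with an interval of -1.51 to -0.40. It did not pass the test across all genes (limma, Benjamini-Hochberg adjusted p = 0.073). The difference was -0.34 within FFPE libraries and -1.56 within frozen libraries. Without the FFPE kidney library the adjusted p was 0.000614, and without the frozen kidney library it was 0.699.

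Krt18 (chr15:102028216-102032026), the partner of Krt8, also had its lowest values in kidney. It had 2.17 and 2.64 log2 CPM in FFPE and frozen kidney, on 9 and 20 reads, against 4.49 and 3.41 in FFPE and frozen brain, 4.44 and 3.68 in FFPE and frozen heart and 2.81 and 3.11 in FFPE and frozen liver. Kidney and the other organs did not overlap, with liver next above kidney. The kidney difference was -1.25 ± 0.45, with an interval of -2.20 to -0.31, and did not pass the test (adjusted p = 0.146). Leaving out the FFPE or the frozen kidney library gave -0.76 and -1.75, neither past the threshold. Heart and brain had differences of 0.95 ± 0.45 (adjusted p = 0.335) and 0.81 ± 0.45 (adjusted p = 0.196).

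Krt7 (chr15:101412403-101427806) and Krt19 (chr11:100140810-100145926), the keratins of duct epithelium, went opposite ways in liver, neither past the threshold. Krt7 had 4.14 and 4.66 log2 CPM in FFPE and frozen liver, against 5.03 and 5.32 in FFPE and frozen brain, 5.15 and 4.96 in FFPE and frozen heart and 4.93 and 4.52 in FFPE and frozen kidney. Its liver difference was -0.58 ± 0.25 (adjusted p = 0.115, interval -1.11 to -0.06), and frozen liver lay above frozen kidney. Krt19 had 5.39 and 5.05 log2 CPM in FFPE and frozen liver, against 4.48 and 4.81 in FFPE and frozen brain, 4.94 and 4.61 in FFPE and frozen heart and 4.29 and 4.96 in FFPE and frozen kidney. Both liver libraries lay above the 6 others. The Krt19 liver difference was 0.54 ± 0.26 (adjusted p = 0.164, interval -0.01 to 1.09). Each passed the threshold under 1 of 15 alternatives, the one without the frozen kidney library, with adjusted p = 0.029 for Krt7 and 0.0399 for Krt19.

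**Figure D1:**
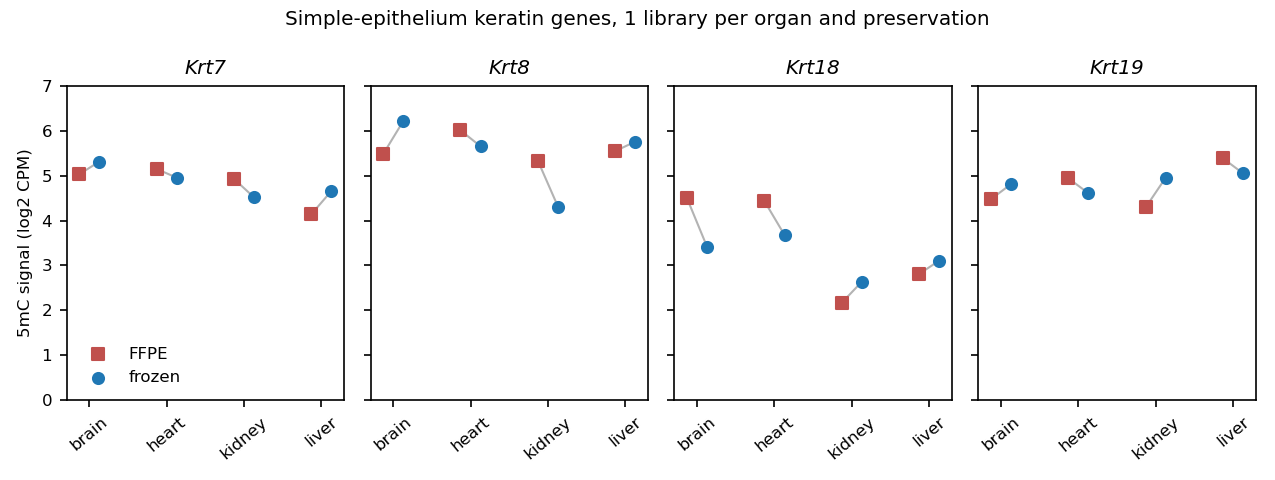
5mC signal (log2 CPM, vertical axis) of the 4 simple-epithelium keratin genes in brain, heart, kidney and liver, with 1 square per FFPE library left of 1 circle per frozen library, joined by a line. Krt8 and Krt18 have their lowest values in kidney, at 4.31 log2 CPM in frozen and 2.17 in FFPE tissue, while Krt19 is highest in liver.

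No simple keratin passed the test in any of the 5 comparisons. As a class their median log2 difference was 0.43 in brain, 0.34 in heart, -0.60 in kidney and -0.18 in liver. For the 46 other keratins the medians were 0.18, -0.11, 0.02 and -0.14, and for all genes tested 0.11, 0.07, -0.02 and -0.10 in the same order of organs. The kidney is where the class lay farthest from both, with 4 of 4 simple keratins below 0. That tally rests on both kidney libraries: Krt7 was at 0.16 without frozen kidney, and Krt19 at 0.14 without FFPE kidney. Adding Krt20 of intestinal and urothelial lining and Krt23 to the class changed the kidney median to -0.22. Membership by name fixes 4 genes only, and no test was made of the class.

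**Figure D2:**
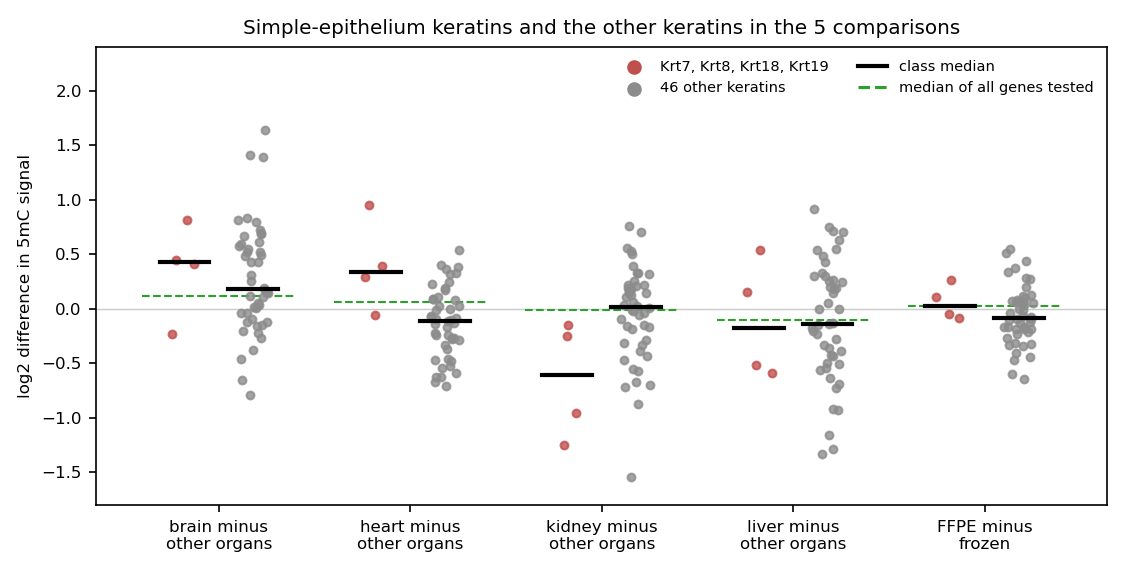
Log2 difference in 5mC signal for each keratin gene (points) in the 5 comparisons, with bars at the class medians and a dashed line at the median of all genes tested. The simple keratins have a median of -0.60 in kidney against 0.02 for the 46 others, and the points of both classes overlap in every comparison.

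Liver had keratin genes called in both directions. Against the mean of the other organs, 5 members were called higher in liver and 6 lower at an adjusted p under 0.05, beside 11.8% and 7.42% of all genes tested. The 5 higher genes (10% of members) were Krt25, Krt26, Krt27, Krt28 and Krt10, the run on chromosome 11 whose upstream sequences are printed above. Under quantile normalization Krt10 kept its call and the other 4 lost it, at 0.42 for Krt25, 0.16 for Krt26, 0.44 for Krt27 and 0.32 for Krt28. The 6 lower genes (12%) were spread over the remaining loci. A share of 10% lies near the background for higher calls.

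Krt10 had the largest rise. It had 6.71 and 6.54 log2 CPM in FFPE and frozen liver, against 5.72 and 4.98 in FFPE and frozen brain, 6.17 and 5.50 in FFPE and frozen heart and 6.18 and 5.71 in FFPE and frozen kidney. Both liver libraries lay above the 6 others, and the difference was 0.92 ± 0.18 (adjusted p = 0.00191), or 1.89-fold. Krt27 had 299 and 324 reads in FFPE and frozen liver, against 108 to 275 in the other libraries, and differed by 0.75 ± 0.18 (adjusted p = 0.00799). Krt25 differed by 0.71 ± 0.18 (adjusted p = 0.0105) and Krt26 by 0.54 ± 0.14 (adjusted p = 0.0153), each without overlap between liver and the other organs. Krt28 differed by 0.63 ± 0.19 (adjusted p = 0.0275), with frozen kidney at 6.75 log2 CPM between the liver values of 6.77 and 6.73.

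The genes lower in liver were 4 stratified-epithelium and 2 hair keratins. Krt16, a keratin of activated and wounded epidermis, had 3.09 and 2.84 log2 CPM in FFPE and frozen liver, against 4.67 and 4.45 in FFPE and frozen brain, 4.01 and 4.52 in FFPE and frozen heart and 3.75 and 4.40 in FFPE and frozen kidney. The groups did not overlap and the difference was -1.34 ± 0.34 (adjusted p = 0.0112), 2.52-fold lower in liver. Krt16 lost this call under quantile normalization, and its difference ran from -1.62 to -0.97 over the 15 alternatives. Krt76, a type II keratin of the hard palate, had 2.24 and 2.65 log2 CPM in FFPE and frozen liver, on 12 and 21 reads, and 2.77 to 4.77 in the others, without overlap. Its difference was -1.28 ± 0.40 (adjusted p = 0.0349). Krt79 fell by 0.92 ± 0.24 (adjusted p = 0.0137) and Krt5, the type II keratin of basal epidermis, by 0.73 ± 0.22 (adjusted p = 0.0324). The hair keratins Krt35 and Krt84 fell by 0.93 ± 0.25 (adjusted p = 0.0166) and 0.64 ± 0.21 (adjusted p = 0.0459), and for both the frozen liver library lay within the range of the other organs. Without the FFPE liver library the liver difference was -0.40 for Krt35, -0.29 for Krt84 and -0.37 for Krt5, none past the threshold, and without frozen liver it was -1.46 for Krt35 and -0.99 for Krt84. Krt76 was at -0.85 under quantile normalization and not past the threshold. Krt14, the filament partner of Krt5, differed by 0.18 ± 0.22 (adjusted p = 0.626), and Krt1, the partner of Krt10, by -0.14 ± 0.25 (adjusted p = 0.746). Krt14, Krt16 and Krt17 are close copies of one another, and the sources used here do not say how reads that match several copies were counted, so their values are uncertain. The limit is not confined to these genes, since no keratin was checked for reads shared with a copy.

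Taking the members in chromosome order, the liver difference had a median of 0.54 over the 12 genes from Krt222 to Krt40 (chr11:99232761-99543220), with 5 called higher and 0 lower. Krt24, in the same stretch and named after its values were seen, lay at -0.69 ± 0.24 (adjusted p = 0.0505). Over the 13 genes from Krt34 to Krt42 (chr11:100037347-100269951) the median was 0.18, with 8 of 13 above 0, 0 called higher and 2 lower. Over the 25 genes from Krt80 to Krt18 (chr15:101348315-102032026) it was -0.36, with 0 higher and 4 lower. The loci were divided at gaps of over 200 kilobases, and neighbouring genes are not independent. Position itself was not tested. The 39 genes of the table that lie between both chromosome 11 loci, mostly genes of keratin-associated proteins of the hair shaft, had a median of -1.10 in liver, with 1 called higher and 6 lower. These 39 genes had low signal, with a median of 4 to 25 reads per library.

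**Figure D3:**
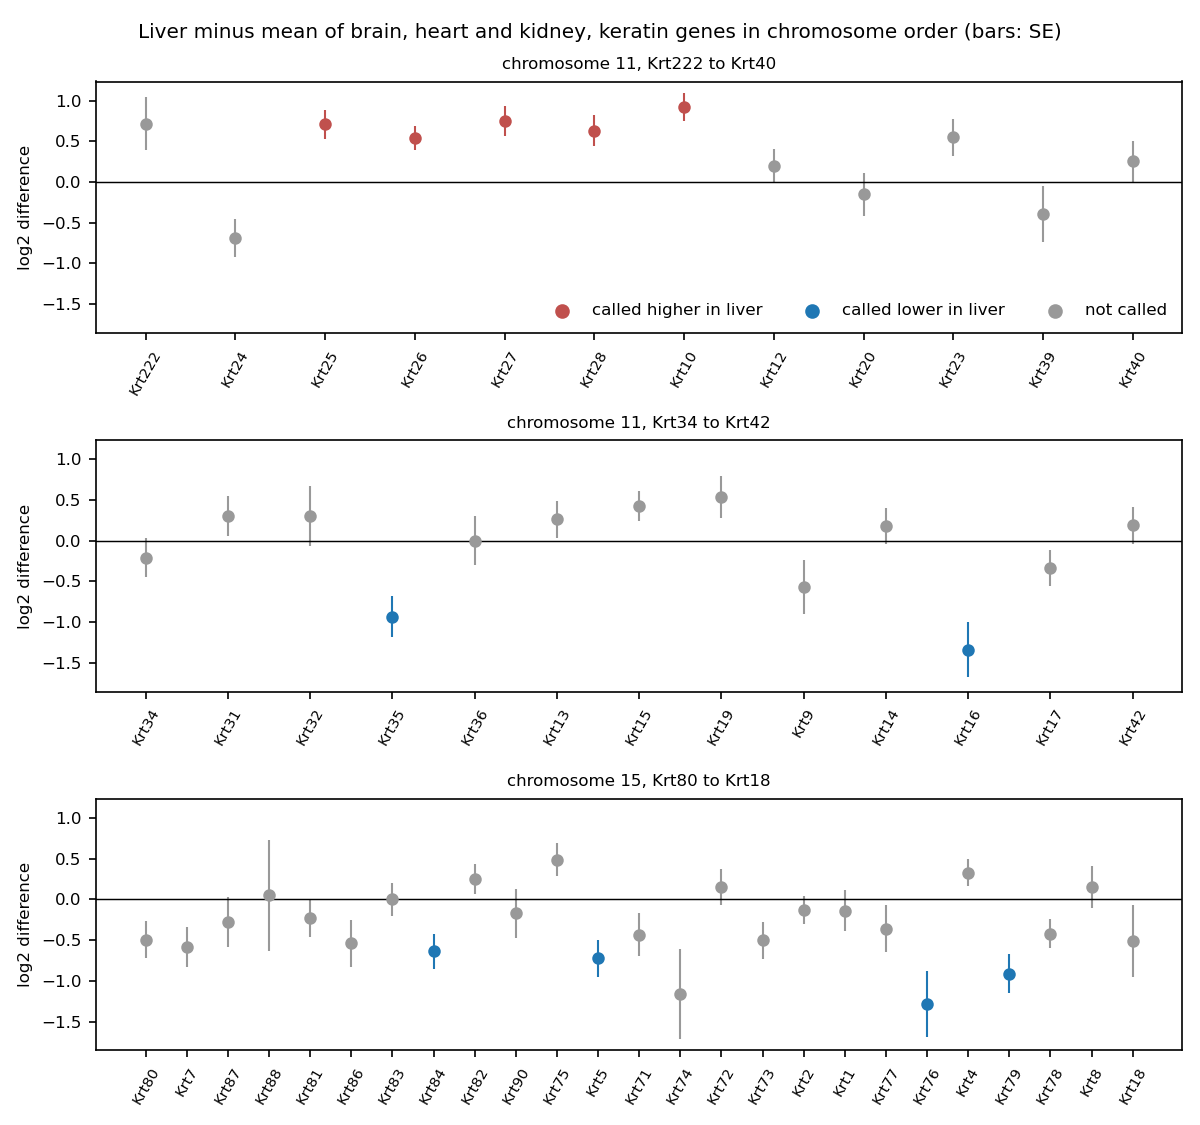
Log2 difference of liver from the mean of brain, heart and kidney for each keratin gene in chromosome order, 1 panel per locus, with bars of 1 SE and colour marking genes called higher, lower or neither. The 5 higher genes stand side by side from Krt25 to Krt10 in the upper panel, while 4 of the 6 lower genes lie on chromosome 15.

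In brain, 5 members were called higher and 2 lower, beside 8.61% and 12.8% of all genes tested. The members' shares were 10% and 4%. Krt76 had 4.77 and 4.51 log2 CPM in FFPE and frozen brain, against 3.90 and 3.47 in FFPE and frozen heart, 2.96 and 2.77 in FFPE and frozen kidney and 2.24 and 2.65 in FFPE and frozen liver. Brain lay above all other libraries, and the difference of 1.64 ± 0.40 (adjusted p = 0.00966) is 3.12-fold. Krt5 had 5.63 and 5.92 log2 CPM in FFPE and frozen brain, against 4.34 to 5.45 in the other libraries, a difference of 0.72 ± 0.22 (adjusted p = 0.0314). The hair keratins Krt35 and Krt84 were higher in brain by 0.83 ± 0.25 (adjusted p = 0.0285) and 0.67 ± 0.21 (adjusted p = 0.0359), also without overlap. Krt75, a keratin of the companion layer around the hair root, was higher by 0.69 ± 0.20 (adjusted p = 0.0238), with FFPE liver inside the brain range. Krt10 and Krt28 were lower in brain by -0.79 ± 0.18 (adjusted p = 0.00563) and -0.66 ± 0.19 (adjusted p = 0.0214), both overlapping the other organs. Without the frozen brain library Krt75 was at 0.45 and Krt28 at -0.34, neither past the threshold.

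Krt76, Krt35, Krt5, Krt84, Krt10 and Krt28 were called in brain and in liver with opposite signs. Each organ is part of the mean that the other was set against, so these calls share libraries and are not separate observations. On chromosome 15 the median brain difference was 0.50, with 21 of 25 members above 0, 4 called higher and 0 lower. On the 12-gene locus of chromosome 11 it was -0.02, with 0 called higher and 2 lower.

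Kidney gave 1 call higher and 0 lower, beside 0.897% and 0.566% of all genes tested. Krt4 had 6.92 and 7.19 log2 CPM in FFPE and frozen kidney, against 6.24 and 6.04 in FFPE and frozen brain, 5.95 and 6.08 in FFPE and frozen heart and 6.90 and 6.57 in FFPE and frozen liver. Both kidney libraries lay above the others, FFPE liver only just below. The difference was 0.76 ± 0.16 (adjusted p = 0.0343). It passed the threshold in 6 of 15 alternatives, and the adjusted p reached 0.318 at most.

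Heart gave 0 calls in both directions by limma, beside 0.162% higher and 1.97% lower of all genes tested. At an unadjusted p under 0.05 there were 10 of 50 members, beside 3804 of 25982 genes tested. The smallest adjusted p belonged to Krt4, with a difference of -0.63 ± 0.16 (adjusted p = 0.0547), and to Krt26 with -0.55 ± 0.14 (adjusted p = 0.0609). Krt26, named here after its values were seen, had 6.28 and 6.19 log2 CPM in FFPE and frozen heart, the lowest of its 8 values. The root-sheath class had a median of -0.46 in heart, beside 0.07 over all genes tested, with 0 of 9 called.

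**Figure D4:**
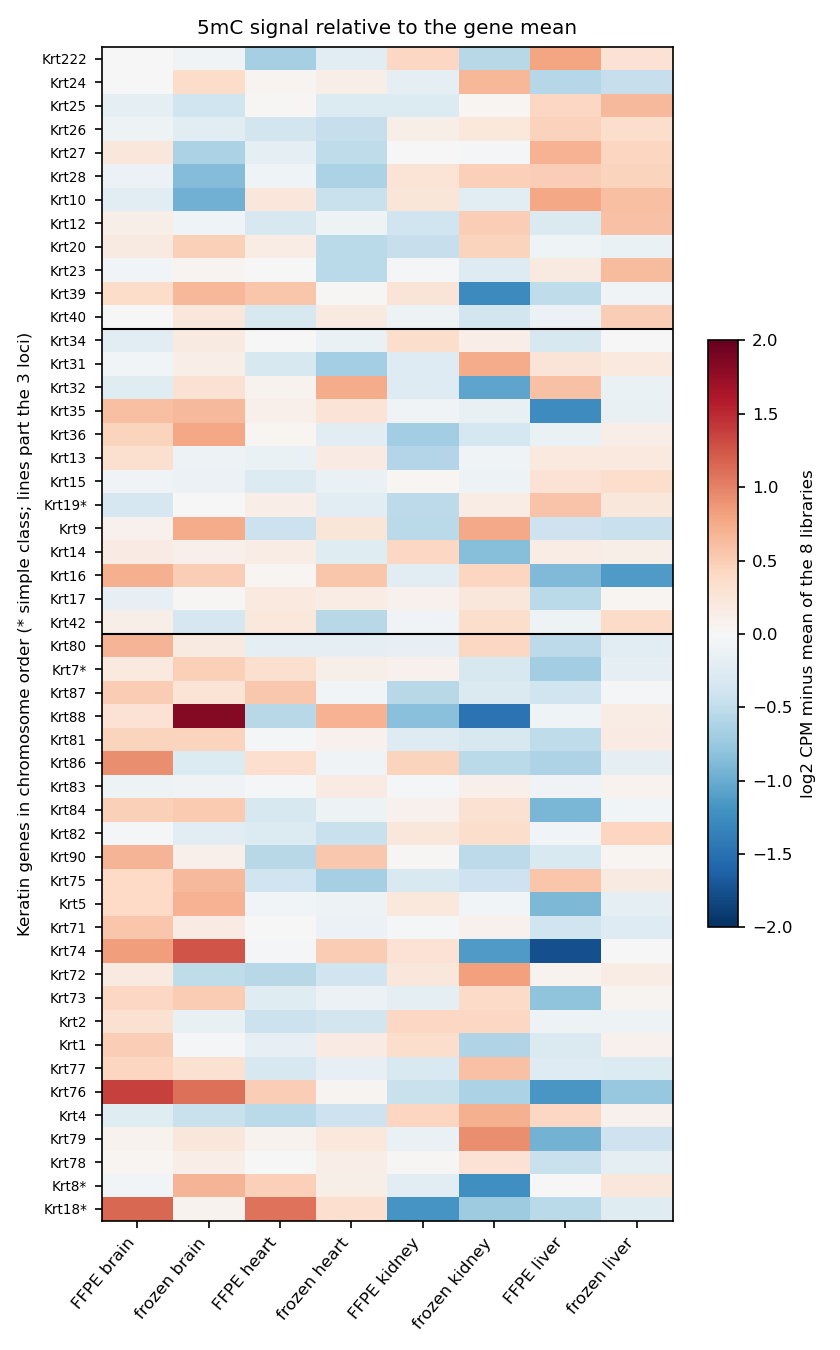
Log2 CPM of each of the 50 keratin genes minus its own mean over the 8 libraries, in chromosome order, with FFPE and frozen columns for each organ and an asterisk on the simple keratins. The run from Krt25 to Krt10 is high in both liver columns, and most chromosome 15 genes are high in brain.

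The level of a gene and its organ difference moved together in these libraries. Over the 50 members, Spearman's rho between mean log2 CPM and the difference was -0.65 in brain, -0.59 in heart, 0.49 in kidney and 0.53 in liver, beside -0.55, -0.30, 0.33 and 0.48 over all genes tested. These are descriptions over genes that share libraries and depth. The members' own standard deviation in log2 CPM was 0.78 and 0.62 in FFPE and frozen brain, against 1.12 and 1.29 in FFPE and frozen kidney and 1.25 and 1.11 in FFPE and frozen liver. The called members follow it in part, with the high-signal genes Krt26 and Krt27 higher in liver and the low-signal Krt76 higher in brain. The part of this spread in the calls was not tested. Quantile normalization, which gives every library the same spread, changed the liver split from 5 higher and 6 lower to 1 higher and 4 lower, with Krt10 still higher. Centring each library on its median gave 9 higher and 3 lower in liver, while the all-gene median there shifted to 0.10 from -0.10. In brain the split of 5 higher and 2 lower became 8 and 1 under quantile normalization and 1 and 4 under centring.

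All 19 calls of members kept their direction in each of the 15 alternatives, but not their place past the threshold. Leaving out a library also changed how many of all genes were called in each organ. Lost or gained calls are therefore not particular to the keratins. Of the 11 liver calls, 1 remained without FFPE liver and 2 without frozen liver, 6 without FFPE heart, 7 without frozen heart, 8 without FFPE brain and 7 without frozen brain. Of the 7 brain calls, 2 remained without FFPE brain, 0 without frozen brain, 3 without either heart library, 4 without FFPE liver and 5 without frozen liver. With either kidney library left out, all calls in brain and liver remained. The call of Krt4 in kidney remained without FFPE brain or FFPE kidney and was lost without any of the other 6. With no trend of the variance on the mean, limma called 0 members in every comparison and 0 genes in all in the 4 organ comparisons.

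No keratin gene was called between FFPE and frozen tissue. Averaged over the 4 organs, 0 members were called by limma in either direction, beside 0.62% higher and 0.735% lower of all genes tested, and 7 of 50 members had an unadjusted p under 0.05, beside 2773 of 25982 genes. Within an organ, FFPE minus frozen had a standard deviation over the 50 members of 0.489 in brain, 0.447 in heart, 0.668 in kidney and 0.435 in liver, in log2 CPM. Over all genes tested it was 0.841, 0.862, 1.32 and 1.03 in the same order. The number of members more than 1 apart was 3 in brain, 2 in heart, 6 in kidney and 2 in liver.

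Krt10 had the smallest p for preservation, being higher in FFPE than in frozen tissue in 4 of 4 organs by 0.51 ± 0.15 on average (adjusted p = 0.151). Krt14 was likewise higher in FFPE in 4 of 4 organs, with 5.92 to 6.19 log2 CPM in FFPE and 4.93 to 5.89 in frozen libraries, a difference of 0.43 ± 0.19 (adjusted p = 0.432). Its kidney pair was 1.26 apart, against 0.07 in brain, 0.38 in heart and 0.03 in liver, and without either kidney library the difference was 0.16. Among simple keratins the FFPE minus frozen difference was -0.05 for Krt7 (interval -0.51 to 0.41), 0.11 for Krt8 (-0.37 to 0.59), 0.27 for Krt18 (-0.55 to 1.08) and -0.08 for Krt19 (-0.56 to 0.39). These intervals leave room for differences of over 1.4-fold. Each of the 4 was higher in FFPE in 2 of 4 organs, and Krt8 in kidney and Krt18 in brain were the pairs more than 1 apart, at 1.02 and 1.08.

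Genes that work with keratins were set beside them. Of 22 desmosome and plakin genes, which anchor keratin filaments at cell contacts, 9 were called higher (40.9%) and 3 lower (13.6%) in liver, beside 11.8% and 7.42% of all genes tested. In brain 5 were higher (22.7%) and 6 lower (27.3%), beside 8.61% and 12.8%, and in heart Plec, Dsp and Eppk1 were lower (13.6%, beside 1.97%). Plec, the gene of the linker protein plectin, had 6052 and 6758 reads in FFPE and frozen liver, against 1510 to 4223 in the other libraries, and differed by 1.28 ± 0.13 (adjusted p = 3.1e-05). Of 18 other intermediate filament genes, 5 were higher (27.8%) and 2 lower (11.1%) in liver, and 3 higher and 3 lower in brain (16.7% each). Vim, the filament gene of mesenchymal cells, was the 1 gene of that list called in heart, at -1.38 ± 0.27 (adjusted p = 0.0152). Neither list gave a call in kidney or between preservations.

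Of 31 epithelial identity genes, 4 were higher and 4 lower in liver (12.9% each), 2 higher (6.45%) and 4 lower (12.9%) in brain, and 2 lower in heart (6.45%). The liver share of higher calls and both brain shares lie near or below those of all genes tested. Epcam, an adhesion molecule of simple epithelium, was higher in liver by 1.33 ± 0.16 (adjusted p = 9.35e-05), and Elf5, an epithelial transcription factor, was lower by -1.29 ± 0.27 (adjusted p = 0.00384). In kidney Klf5 was the 1 gene called, at 0.79 ± 0.17 (adjusted p = 0.0359). Sfn, the epithelial 14-3-3 protein, was the 1 gene of all these lists called between preservations. It had 94, 87, 70 and 130 reads in FFPE brain, heart, kidney and liver, against 27, 32, 4 and 17 in the frozen libraries, a difference of 2.70 ± 0.44 (adjusted p = 0.00279).

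The keratins whose symbols carry a letter were not members. They too were not checked for reads shared with a copy. Of the 4 in the table, Krt6a was higher in brain by 1.29 ± 0.38 (adjusted p = 0.025) and Krt6b lower in liver by -1.01 ± 0.30 (adjusted p = 0.0285), the same directions as their neighbour Krt5. Of 54 keratin-associated protein genes tested, 10 were higher (18.5%) and 3 lower (5.56%) in brain with a median of 1.17, 2 were higher (3.70%) and 7 lower (12.96%) in liver with a median of -0.98, and 1 was lower in kidney. They had a median of 6 to 23 reads per library, so the smallest of these values rest on few reads. Krtap4-6 had 0 and 4 reads in FFPE and frozen liver, against 38 and 30 in FFPE and frozen brain. Krtap16-1, with 99 to 333 reads, went the other way and was higher in liver by 0.96 ± 0.20 (adjusted p = 0.0028).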

How the data were processed

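DNA methylation was measured by MeDIP-seq. Per the submitters' processing notes, Bowtie2 aligned the reads to mm10, featureCounts counted them and limma was used. Versions, the counted feature, strand and how multiply matching reads were treated are not stated there. The deposited table holds log2 CPM for 27179 genes, which step back to whole reads with 0.5 added per count (100% of values, tolerance 1e-04 in log2). The labels list 32 samples in 16 groups of 2 (16 5mC, 16 Input), but the table has 8 columns with no antibody or replicate number. Each column was taken as 5mC and is called a library, although it may pool replicates. A fit of replicates was therefore not possible. Input was not analysed here, so copy number and DNA yield are not corrected for.

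Values were fitted as organ plus preservation with limma 3.58.1 (R 4.3.3), with 3 residual and 13.1 prior degrees of freedom and a trend of variance on mean. A gene was tested if 2 or more libraries had at least 1 CPM (25982 kept, 1197 removed). Each organ was compared with the mean of the other 3, and FFPE with frozen, with Benjamini-Hochberg adjustment over all genes at 0.05. With 1 column per group, the spread behind the p-values is how far organ differences varied with preservation. With 13.1 prior against 3 residual degrees of freedom, most of that spread is borrowed from other genes of like signal. Nothing shows that libraries came from separate animals. The fit was also run on simulated counts with the same relative spread for every gene and library. The real libraries differ in spread, so that run does not check the p-values given here. Intervals are 95%. Depth was 2164158 to 3699218 reads on genes per library, and a count of 0 allows up to 3 reads, or 0.876 to 1.42 CPM.

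Gene positions are those of whole genes in RefSeq GRCm38.p6, matched by Entrez ID for all 50 members. The long RNA genes that overlap Krt222, Krt24, Krt25, Krt26, Krt12 and Krt80 were not separated. Members, classes, lists and the naming rule were chosen with earlier results of these data known. The rule names the simple keratins, all called members (6 at most per direction), Krt5, Krt14, Krt1, Krt10, the 3 highest and 3 lowest per kilobase, and up to 3 called genes per other list and comparison. The alternatives were 2 normalizations, 2 filters, a pseudocount of 2, no variance trend, array quality weights, each library left out in turn, and a wider simple class.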

Additional observations from a re-analysis of the deposited data

Results flagged for a closer look

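Within the 4 FFPE or the 4 frozen libraries of a gene, 1 organ stood far from the other 3 in 6 of 100 groups examined, and chance gives about 1 in 20. In frozen tissue, Krt15 in liver had 5.81 log2 CPM, against 5.33 to 5.35 in the other organs. Krt16 in frozen liver had 2.84, against 4.4 to 4.52. Krt5 in frozen brain had 5.92, against 5.04 to 5.18. These 3 values have the same direction as the gene's organ difference in FFPE tissue. Among FFPE libraries, Krt14 in kidney had 6.19, against 5.92 to 5.94, Krt77 in brain 4.8, against 4.04 to 4.11, and Krt78 in liver 5.21, against 5.65 to 5.69.

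An organ's FFPE library lay beyond the 3 other FFPE libraries on one side, and its frozen library beyond the 3 other frozen libraries on the opposite side, in 6 of 200 pairs of gene and organ. If the organs' ranks in FFPE and frozen tissue were unrelated, more such pairs would be found. The distance apart is given as FFPE minus frozen. These differences between preservations were not tested, since 1 library stands for each organ and preservation. For Krt13 in brain the difference from the other organs was 0.491 in FFPE and -0.201 in frozen tissue, 0.692 apart. For Krt9 in kidney it was -0.287 in FFPE and 0.574 in frozen tissue, or -0.862 apart. Krt14 in kidney had 0.262 in FFPE and -0.837 in frozen tissue, 1.1 apart. Krt42 in heart had 0.235 in FFPE and -0.683 in frozen tissue, 0.918 apart. Krt42 in liver had -0.187 in FFPE and 0.56 in frozen tissue, or -0.748 apart. Krt90 in heart had -0.689 in FFPE and 0.663 in frozen tissue, or -1.35 apart.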

How the results depend on the processing

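Counts of keratin calls moved with the processing, and the cause was not tested. Calls over all genes moved too, from 2238 higher and 3333 lower in brain and 3056 higher and 1929 lower in liver. Quantile normalization gave 5461 calls over all genes in brain and 2618 in liver. Centring on medians gave 6478 and 6072, and array quality weights 8323 and 5459. Among members, quantile normalization gave 8 higher and 1 lower in brain and 1 higher in liver. With libraries centred on their medians brain had 1 higher and 4 lower, heart 3 lower, and liver 9 higher and 3 lower. With no variance trend brain, kidney and liver had 0 higher and brain and liver 0 lower. Array quality weights gave 10 higher in brain, 6 lower in heart, 0 higher in kidney and 1 higher in FFPE tissue (Krt10). Without a filter kidney had 0 higher. With 1 CPM required in every library heart had 2 lower and kidney 1 lower (Krt8). A pseudocount of 2 gave 1 lower in heart. The kidney median of the simple keratins was -0.22 with the wider class, against -0.60.

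Leaving out 1 library at a time, brain had 0 to 12 higher and 0 to 4 lower, heart 0 to 6 lower, kidney 0 to 5 higher and 0 to 5 lower, and liver 0 to 6 higher and 0 to 8 lower. The median of the simple keratins then ran between 0.070 and 0.58 in brain and between -0.48 and 0.061 in liver. A lone remaining library of an organ is assumed there to vary like the others. Myh6, called higher in liver, had a difference of -0.076 with quantile normalization. No paired analysis was possible because the columns carry no replicate numbers. Depth limits Krt9, Krt16, Krt18, Krt36, Krt74, Krt76 and Krt88, which had under 25 reads in 1 or more libraries.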
